A study of Mus musculus with 46 samples.

Results

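The constructs described here carry a candidate cis-regulatory element (cCRE) joined to another cCRE, both taken from the Tfcp2l1 locus of the mouse, without a promoter fragment. Every listed cCRE with cCRE construct of the Tfcp2l1 library whose activity was above 0 in all 3 biological replicates was kept, which gave 40168 of 44515 listed pairs and of 89293 constructs in the whole upstream data set. The study cloned fragments of regulatory DNA, alone and joined in pairs, upstream of a barcoded reporter gene and measured how much reporter RNA each construct made, to ask which elements work together. All values come from E14TG2a cells, an established mouse embryonic stem cell line, grown in 2i+LIF medium, which holds the cells in a naive pluripotent state. The Tfcp2l1 plasmids were brought into the cells by nucleofection in experiments of their own, in 3 biological replicates, with 4 µg of plasmid per cuvette. RNA was taken after 24 h. No group was treated differently from another, so the comparisons are between constructs within the same 3 transfections. The tables hold no gene expression, so the cell type was not checked against marker genes.

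cCREs are stretches of DNA that carry marks of enhancers, such as open chromatin, in the cells studied. Enhancers bind transcription factors and raise transcription from promoters, and many of them also start transcription within themselves. In a plasmid that holds no separate promoter fragment, reporter RNA therefore depends on transcription that the cCREs themselves can start or raise. Tfcp2l1 encodes a transcription factor of the naive pluripotency network of mouse embryonic stem cells.

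The members used 231 cCREs, each a fragment spanning 450 bp, from chr1:117851628-120550161 of mouse build mm10. Among them, 112 overlapped a gene annotated by RefSeq; exons, introns and UTRs were not told apart here. A cCRE was tested in the forward (+) or reverse (-) orientation and in the first or second position, and in the study's design the second fragment lies next to the reporter. A construct is written as E054+|E017-, with the first cCRE before the bar. In all, 214 cCREs occurred first and 228 second, in 11967 different couples, and a cCRE took part in 1 to 1221 pairs with a median of 303. The activity of a construct is the deposited ratio of barcodes in RNA to barcodes in the plasmid, so it has no unit. The number of barcodes behind each ratio is unknown here.

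Of the cCREs, 6 hold a stretch of an annotated promoter window that could be read from RefSeq on GRCm38.p6, the assembly that mm10 names, and all 6 were active alone in at least 1 orientation. Of all 420 oriented cCREs 30.7% were active alone. The share of all cCREs active in at least 1 orientation was not counted, so the 6 cannot be set against it. The 3 of them with the highest activity alone are shown. Each is written 5′ to 3′ on the strand of the gene, and capitals mark motif matches. The E032 stretch, 200 bases at chr1:118459316-118459515 on the minus strand, lies upstream of 2900060B14Rik, and E032 also overlaps Clasp1, which encodes a microtubule-binding protein. The E125 stretch, 250 bases at chr1:119125021-119125270 on the minus strand, belongs to Gm41934. The E153 stretch, 204 bases at chr1:119305493-119305696 on the plus strand, belongs to Gm33388.
E032: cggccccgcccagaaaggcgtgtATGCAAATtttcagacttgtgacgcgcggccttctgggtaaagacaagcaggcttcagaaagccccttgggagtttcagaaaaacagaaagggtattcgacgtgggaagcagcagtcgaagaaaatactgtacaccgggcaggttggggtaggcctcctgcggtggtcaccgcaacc
E125: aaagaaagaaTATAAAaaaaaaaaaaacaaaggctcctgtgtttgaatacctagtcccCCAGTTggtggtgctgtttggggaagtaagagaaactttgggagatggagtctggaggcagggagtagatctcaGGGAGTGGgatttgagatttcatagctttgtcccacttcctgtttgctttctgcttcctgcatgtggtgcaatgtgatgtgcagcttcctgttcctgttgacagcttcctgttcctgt
E153: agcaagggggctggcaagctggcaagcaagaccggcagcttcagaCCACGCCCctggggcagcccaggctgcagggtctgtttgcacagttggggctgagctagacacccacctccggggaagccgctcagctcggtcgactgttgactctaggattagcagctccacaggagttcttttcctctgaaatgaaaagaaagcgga

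The capitals in E032 are an octamer, ATGCAAAT, the site of POU factors such as Oct4, which 1.32% of 32851 mouse promoter windows hold in the same stretch. E125 held a TATA motif (TATAAA, in 11.3% of windows), part of a Tfcp2l1 site (CCAGTT, in 12.2%) and a Klf motif (GGGNGTGG, in 15.6%). E153 held a Klf motif, here on the other strand, which 12.2% of windows hold. Also searched on both strands, without a match in these 3 stretches, were the Esrrb core AAGGTCA, Sox CATTGTT, TEAD GGAATG, AP-1 TGANTCA, ETS CCGGAAG and CTCF CCACNAGG. In windows of the length of the E032 stretch these were found in 3.36%, 2.74%, 10.7%, 5.57%, 3.98% and 3.35%. Each match is only a description of the letters, and no matches overlapped. The E032 stretch had 12 CpG sites and E153 had 7, while E125 had 0, so the 3 differed in CpG content.

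Alone, most cCREs made little RNA, and a few made much. Among 420 oriented cCREs measured without a partner, the median activity was 0.0955, and 129 (30.7%) were above the empty single construct in all 3 replicates, which is called active alone from here on. The empty single construct had activities of 0.161, 0.186 and 0.190 in replicates 1 to 3. E017, which overlaps Tsn, the gene of the nucleic acid binding protein translin, was the most active with 31.3, 29.0 and 33.5 in reverse and 14.9, 15.0 and 16.9 forward. E060, which overlaps Tfcp2l1 itself, followed with 16.4, 15.9 and 14.3 forward and 7.57, 7.54 and 6.92 in reverse. Only 30 oriented cCREs, from 20 cCREs, were above 1 in all 3 replicates, which is meant by above 1 alone from here on. Of the cCREs with sequences shown above, E125 gave 1.42, 1.78 and 1.87 in reverse but 0.318, 0.404 and 0.413 forward, while E032 and E153 gave about 1 in both orientations, with geometric means of 0.997 and 1.06 for E032 and 1.00 and 0.936 for E153. The orientations of E125 thus did not overlap, and E032 and E153 had little preference.

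In pairs, the median activity was 0.173, 0.187 and 0.201 in replicates 1 to 3, against 0.0460, 0.0658 and 0.0654 for the empty pair. In all 3 replicates, 62.9% of the pairs were above the empty pair and 13.2% below it, 19.4% were above 1 and 1.88% above 10. Replicates correlated with r of 0.90 to 0.91 on the log2 scale over the 40168 pairs, which share the plasmid pool. The error depended on the level: the median SD between replicates was 1.23 on the log2 scale in the lowest sixth of pairs and 0.17 in the highest. Most zeros fell in replicate 1, with 3439 listed pairs at 0 there, against 792 in replicate 2 and 1042 in replicate 3. Pairs with a replicate at 0 were left out, 3516 with 1 zero, 736 with 2 and 95 with 3. They were 17.3% of the pairs of cCREs that were both inactive alone, 5.40% where the first alone was active, 3.52% where the second was and 1.20% where both were, so the members hold fewer of the weakest pairs.

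The activity of a pair rose with what its cCREs did alone, and most when both were active. Where neither cCRE was active alone (15891 pairs), the median pair activity was 0.0625, near that of the empty pair. It was 0.318 where only the first was active (9785 pairs), 0.453 where only the second was (9134 pairs) and 1.58 where both were (4937 pairs). Across 39747 pairs, log2 activity correlated with that of the first cCRE alone at r = 0.45, with the second at 0.62 and with the sum of both at 0.78, as a description over constructs that share cCREs. When the cCREs of each position were split into 5 equal groups of pairs by activity alone, the median was 0.0366 for pairs of the lowest group in both positions and 3.39 for pairs of the highest in both. Pairs of the highest with the lowest group gave 0.856 with the stronger cCRE second and 0.583 with it first. The second position thus went with the higher level for strong cCREs, and the order of the same couple is tested below.

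Compared with the first cCRE alone by limma's moderated test on within-replicate log2 differences, 14728 of 40071 pairs (36.8%) were higher and 9863 (24.6%) lower at an adjusted p under 0.05. Over all 50423 2-fragment constructs of the library that were tested, promoter constructs included, the shares were 36% and 26.4%. Against the second cCRE alone, 14491 of 39844 pairs (36.4%) were higher and 6701 (16.8%) lower, beside 35.2% and 17.6% of all constructs tested. The count of lower pairs was 4260 without replicate 2 and 3823 without replicate 3. Pairs above both of their cCREs alone numbered 8094 of 39747 (20.4%; all constructs tested, 18.5%), and pairs below both numbered 1619 (4.07%; all constructs tested, 4.3%), or 791 without replicate 2 and 645 without replicate 3. The share above both was 44.1% where both cCREs were active alone, and 15.8%, 14.5% and 21.9% where neither, only the first or only the second was.

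Against the sum of the activities of the 2 cCREs alone, 6546 of 39747 pairs (16.5%) were higher and 23516 (59.2%) lower, beside 14.8% and 61.6% of all constructs tested. In the constructs with a promoter fragment alone these shares were 8.44% and 71.4%. The median log2 difference from the sum was -1.02 ± 0.03 (SD, n = 3 replicates). It was -1.38 ± 0.11 where neither cCRE was active alone, -1.33 ± 0.03 where only the first was, -0.57 ± 0.01 where only the second was and -0.17 ± 0.04 where both were. The sum holds the background of the vector once per fragment, so 2 cCREs at background are set against more than 1 background. Where neither was active, the median difference was -0.26 ± 0.04 from the first and -0.26 ± 0.07 from the second alone. Of these 15891 pairs 9500 (59.8%) were called lower than the sum, near the 59.2% of all cCRE pairs. The shares were 70.5%, 53.7% and 44.8% where only the first, only the second or both were active. With only the first active, the median difference from that cCRE alone was -1.12 ± 0.06, while with only the second active the difference from the second alone was -0.37 ± 0.03.

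These directions rest on the scale that joins pairs to single cCREs. The empty single construct was 3.51, 2.83 and 2.91 times as active as the empty pair in the 3 replicates. Of the 420 oriented cCREs alone, 265 were below the empty single construct in all 3 replicates, while 13.2% of the pairs were below the empty pair. When pairs were divided by the empty pair and single cCREs by the empty single construct, the median difference from the sum turned to 0.60 ± 0.15, with 17100 pairs higher and 4134 lower. The class medians became 0.24 ± 0.08, 0.28 ± 0.14, 1.05 ± 0.17 and 1.45 ± 0.15 for neither, first only, second only and both. On that scale 23896 pairs were above and 1847 below the first cCRE alone, and 25706 were above and 860 below the second. On either scale the difference from the sum was highest where both cCREs were active and second highest where only the second was. Comparisons between pairs, such as order, position and orientation, do not depend on this scale.

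**Figure D1:**
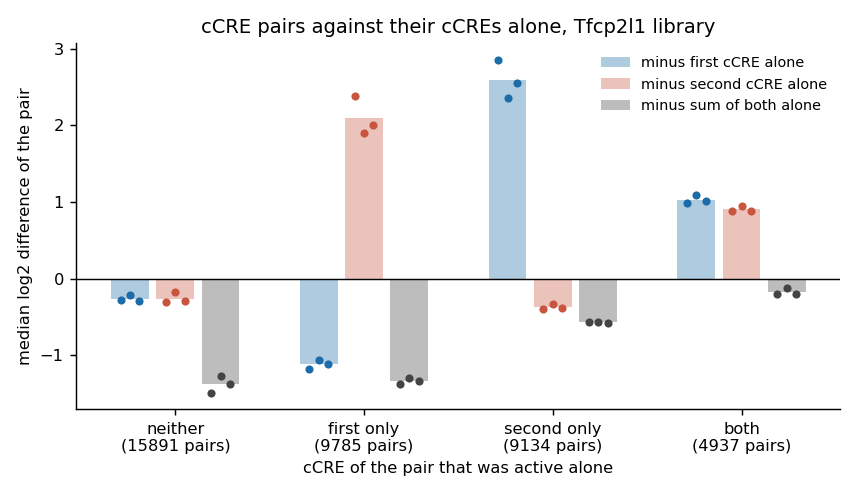
Median log2 difference of cCRE pairs from the first cCRE alone, the second alone and the sum of both, by which cCRE was active alone; bars are the mean of the 3 replicate medians and points are the replicates, on the deposited scale. Pairs with only the first active lie lower against their active cCRE (-1.12) than pairs with only the second active (-0.37), and the sum bars lie below 0 on this scale but above 0 once both kinds of construct are set against their empty constructs.

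The same 2 cCREs in the same orientations were measured in both orders in 8710 couples of 176 cCREs. The orders correlated at r = 0.77, and the median absolute difference was 1.03 on the log2 scale. Order made a difference past an adjusted p of 0.05 (limma) in 4019 couples (46.1%; all constructs tested, 47.2%), and 51.2% differed by more than 2-fold in either direction. Among the 4019, activity was higher with the cCRE stronger alone in second position in 2894 couples and with it in first position in 1125.

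The advantage of placing the stronger cCRE second grew with the difference in strength. Where the 2 cCREs alone differed by less than 1 on the log2 scale (2928 couples), the median difference, stronger second minus stronger first, was 0.07 ± 0.02 (SD, n = 3 replicates). It was 0.26 ± 0.03 for gaps of 1 to 2, 0.52 ± 0.04 for 2 to 3 and 0.67 ± 0.003 for 3 to 5. Over a gap of 5 (798 couples) it was 1.54 ± 0.04, with median activities of 8.45 and 2.33 in the 2 orders, and 684 of the 696 couples called were higher with the stronger cCRE second. Over all couples at least 8-fold apart alone the median was 1.02, and without E017 and E060, the strongest cCREs, it was 0.69.

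**Figure D2:**
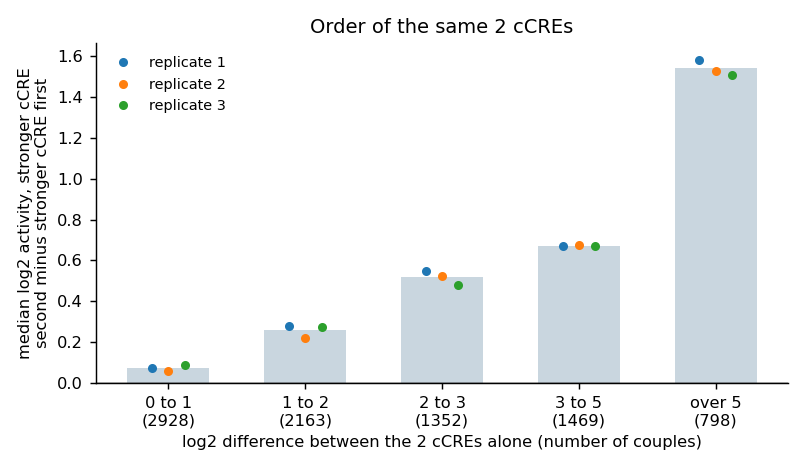
Median log2 activity with the stronger cCRE second minus that with it first, over couples grouped by the log2 difference of the 2 cCREs alone; bars are the mean of the 3 replicate medians, points the replicates. The difference rises from 0.07 in the most equal couples to 1.54 in those more than 5 apart.

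E017 showed the order most clearly: in all 190 of its couples activity was higher with E017 second, each past the threshold, and the median difference, first minus second, was -3.08. For E060 it was 363 of 394 couples, with 9 called the other way, and for E166, an intergenic cCRE whose nearest coding gene is Inhbb, which encodes an activin and inhibin subunit, 150 of 204 with 15 the other way. E301 and E294, both nearest to the macrophage receptor gene Marco, were more balanced, with 32 against 21 of 70 couples and 179 against 60 of 337. E032 went the same way as E017 and E060, with 131 of 177 couples called higher with it second and 13 higher with it first. For E111 it was 17 of 20 couples, with 1 called the other way. E073, which was inactive alone, went the other way, and 12 of its 17 couples were called higher with it first and 0 with it second.

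The couples with the largest single differences in order were not those of strong cCREs. E116-|E130- had activities of 0.00272, 0.00997 and 0.0371, while E130-|E116- had 4.39, 3.98 and 6.09, a log2 difference of -8.88 ± 0.60 (SE). E091+|E295- had 0.0190, 0.00331 and 0.00458, against 2.49, 3.39 and 2.97 in the other order. E142-|E273- had 6.36, 6.85 and 7.53, against 0.0375, 0.05 and 0.00226. In each of these couples the replicates of the 2 orders were far apart, although neither cCRE had a geometric mean above 0.21 alone. In 2 further couples, E108-|E138- and E208-|E215-, the log2 differences were 8.03 ± 0.65 and 7.73 ± 0.50. The part of differences between the plasmids of a construct in these single values was not tested.

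The output of a strong cCRE beside partners that were inactive alone shows the same contrast as a level. With E017- second, the median over 136 such partners was 30.8, 28.2 and 31.2 in replicates 1 to 3, 96.3% of its activity alone. With E017- first, the median over 206 partners was 2.86, 2.86 and 3.19, or 9.49%, and all 206 pairs were called lower than E017- alone. The replicates of the 2 positions did not overlap. E017+ gave 21.4, 20.95 and 23.4 second (140% of alone) and 1.99, 2.11 and 2.32 first (13.7%). E060+ gave 14.6, 14.6 and 12.4 second (89.0%) and 4.95, 5.02 and 4.51 first (31.0%). With E060- the median was 121% of alone when second and 33.8% when first. On the scale of the empty constructs these shares were 431% second and 42.1% first for E017+, 273% and 95.3% for E060+, and 371% and 104% for E060-. Of 20 oriented cCREs above 1 alone and measured in both positions, 18 had the higher median when second. Their median share of the activity alone was 50.5% when first and 99.8% when second on the deposited scale, or 155% and 307% relative to the empty constructs; for E017- the shares on that scale were 29.1% and 295%.

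The spread over partners was also smaller in second position for the strongest cCREs. Across partners the SD of log2 activity was 0.26 for E017- second and 1.00 first, and 0.41 for E060+ second and 0.68 first. Exceptions to the position pattern were E188-, with medians of 1.20 first and 1.10 second against 1.35 alone, and E077+. E125-, shown above, gave nearly the same in both positions, 0.811, 0.966 and 1.02 first and 0.811, 1.09 and 1.06 second, that is 55.3% and 58.3% of its activity alone, or 170% and 179% relative to the empty constructs.

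E077+, nearest to the Hedgehog transcription factor gene Gli2, stood apart from the other oriented cCREs above 1 alone that were measured in both positions. Alone it had activities of 1.26, 1.41 and 1.57. In pairs with inactive partners the median was 0.0344, 0.0583 and 0.0623 when first (43 partners) and 0.0198, 0.0593 and 0.0299 when second (14 partners), near the empty pair in both positions. All 14 of the pairs with E077+ second and 41 of the 43 with it first were called lower than E077+ alone. The medians were 10.9% (first) and 7.13% (second) of its activity alone relative to the empty constructs. Its reverse orientation had 0.0223, 0.0541 and 0.0534 alone.

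**Figure D3:**
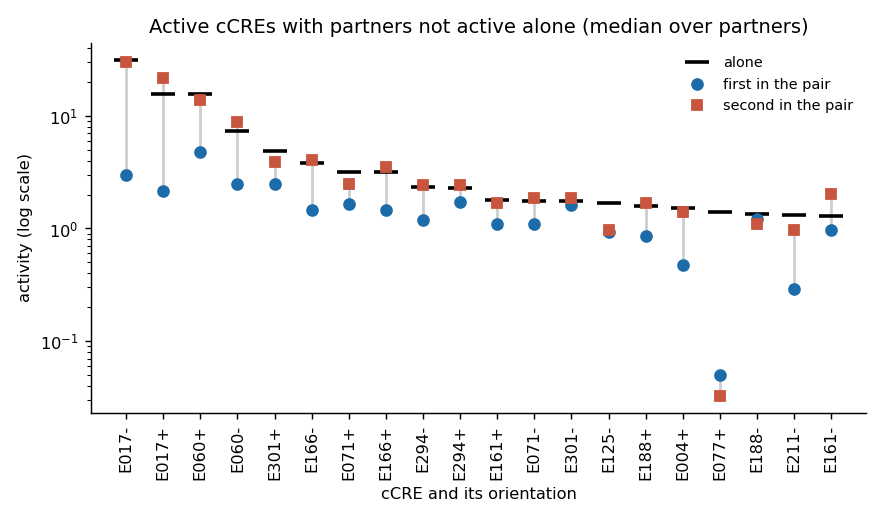
Activity (log scale) of the 20 oriented cCREs above 1 alone that were measured in both positions, alone (black bar), first (circle) and second (square), as the median over partners that were inactive alone. On the deposited scale E017- lies at 31.2 alone, 2.96 when first and 30.0 when second, and E077+ lies below 0.1 in both positions.

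For each cCRE the effect on its partners is the mean log2 difference between its pairs and the partner alone, for cCREs with at least 10 partners in a position. The pair also holds the output of the cCRE itself, so this difference cannot tell that output from a change in the partner. As first fragment, 70 of 186 cCREs (37.6%) had pairs higher on average than the partners alone at an adjusted p under 0.05 (limma). For 95 (51.1%) the pairs were lower, and the median effect was -0.23 ± 0.04 (SD, n = 3). As second fragment 73 of 199 (36.7%) had higher and 113 (56.8%) had lower pairs, with a median of -0.48 ± 0.07. Relative to the empty constructs, 185 of the 186 were higher and 0 lower as first fragment, with 179 higher and 8 lower as second, so only the ranking of cCREs is free of the scale. The effects in the 2 positions correlated at r = 0.94 over 184 cCREs, and with activity alone at 0.87 (first) and 0.91 (second), as a description.

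E017 led with 4.63 ± 0.28 (SE) as first and 7.36 ± 0.34 as second fragment, and E060 followed with 4.61 ± 0.29 and 6.24 ± 0.25. In replicates 1 to 3 the effect of E017 was 4.87, 4.48 and 4.55 first and 7.62, 7.17 and 7.29 second. E166 (3.69 and 4.72), E301 (4.04 and 4.03) and E294 (3.83 and 4.21) came next, all of them in stretches with no annotated gene. These 5 were the highest by the mean of both positions. E032, E125 and E153 had effects of 1.52, 2.18 and 1.92 as first and 3.10, 1.90 and 2.94 as second fragment. The 5 lowest were E288 (-1.71 and -2.81), E073 (-1.34 and -2.32), E293 (-1.37 and -1.95), E145 (-1.15 and -2.08) and E080 (-1.38 and -1.70), all of them with no annotated gene. As first and second fragment E288 rested on 26 and 17 pairs, E293 on 21 and 13, and E080 on 41 and 23. E145 had 65 and 38 pairs and E073 had 142 and 98. The partners differed between cCREs and were not matched, so the ranking also depends on the partners that each cCRE had. E293 and E294, at opposite ends of the ranking, lie at chr1:120460905-120461355 and chr1:120461482-120461932.

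Relative to the empty constructs the effects of E073, E293, E145 and E080 as first fragment turned positive, at 0.28, 0.25, 0.47 and 0.24. Between these ends E286, E099 and E101 had effects of -0.73, -0.52 and -0.46 as first and -0.57, -1.19 and -1.23 as second fragment. All of these turned positive relative to the empty constructs.

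**Figure D4:**
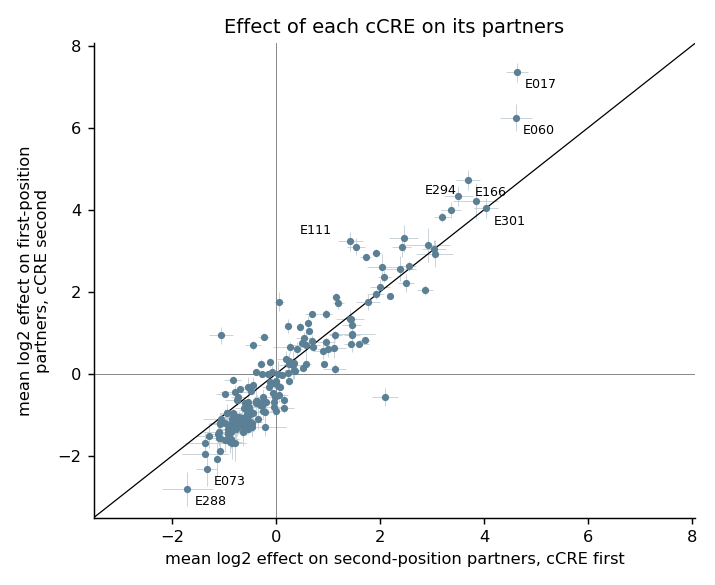
Mean log2 effect of each of 184 cCREs on its partners as first fragment (horizontal) and as second fragment (vertical), on the deposited scale; error bars are SD over 3 replicates and the line marks equal effects. E017 and E060 lie above the line, with 7.36 and 6.24 as second fragment against 4.63 and 4.61 as first.

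Position was also tested within couples measured in both orders, as the mean first minus second over at least 10 partners. Each couple entered for both of its cCREs, with opposite sign, so the scores of partners mirror each other in part. A couple that was higher with E017 second thus adds to the first-position score of its partner. Of 146 cCREs, 83 (56.8%) were higher when first and 39 (26.7%) when second. The largest preferences for the second position were those of E017 (-3.03 ± 0.03, SE; adjusted p = 1.63e-09 by limma), E111 (-2.23 ± 0.06), E173 (-1.68 ± 0.22), E032 (-1.61 ± 0.04) and E245 (-1.53 ± 0.07). The largest for the first position were E073 (2.43 ± 0.18), E033 (1.38 ± 0.13), E251 (1.08 ± 0.15), E035 (1.03 ± 0.12) and E243 (1.02 ± 0.12). The preference ran against strength: over the 146 cCREs it correlated with activity alone at r = -0.62. This is a description in which each couple counts for both of its cCREs. Without pairing the replicates, the count of cCREs higher when first was 40.

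Strong cCREs joined to each other mostly gave less than the sum of their activities on the deposited scale, and mostly more relative to the empty constructs. Among the 37 pairs of E017, E060, E166 and E301 with each other, 29 were below and 4 above the sum, with a median difference of -1.0, and 8 were above both cCREs alone and 0 below both. Relative to the empty constructs 22 were above and 8 below the sum, with a median of 0.62. Over all 39747 cCRE pairs the medians on the 2 scales were -1.02 and 0.60, near those of the strong pairs. Pairs of 2 cCREs active alone had -0.17 and 1.45. On the deposited scale 59.2% of all cCRE pairs were below and 16.5% above the sum, and 20.4% were above both cCREs alone. E017-|E060+ gave 17.7, 18.1 and 16.1, and in the other order E060+|E017- gave 26.5, 21.5 and 22.5. E017-|E301- gave 1.84, 1.85 and 2.00, while E301-|E017- gave 30.4, 29.1 and 33.3. Replicates of the 2 orders did not overlap in either couple. Against the second cCRE alone these 4 pairs, in this order, were at 1.11, 0.750, 1.08 and 0.990 times its activity on the deposited scale, and at 3.42, 2.30, 3.33 and 3.04 times relative to the empty constructs. Of the pairs above the sum, E301-|E166- gave 7.08, 8.91 and 6.73 where the cCREs alone had 1.75 and 3.79.

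In 5 pairs the same cCRE filled both positions, in opposite orientations. E060-|E060+ gave 3.46, 3.98 and 3.41, below the 7.34 and 15.5 of the 2 orientations alone and -2.66 ± 0.09 (SE) from their sum. E005-|E005+ gave 2.91, 2.11 and 2.75, above its 0.744 and 0.609 alone and 0.92 ± 0.11 from their sum. E154-|E154+ lay -3.59 ± 0.67 from the sum, and E168 and E268 missed the threshold at -0.04 ± 0.37 and 0.41 ± 0.23. Relative to the empty constructs E060 and E154 stayed below the sum (-1.05 and -1.98), and E005, E168 and E268 lay above it (2.54, 1.58 and 2.02).

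Turning a cCRE around within a pair changed activity in many couples. With the first fragment turned, 3637 of 10346 couples (35.2%; all constructs tested, 35.4%) passed an adjusted p of 0.05 (limma), 2073 higher forward and 1564 higher in reverse, beside 20.6% and 14.7% of all constructs tested. With the second fragment turned, 5416 of 12483 (43.4%; all constructs tested, 44.7%) passed, 2824 and 2592, beside 25.2% and 19.5% of all constructs tested. The median absolute difference was 0.74 for the first and 0.90 for the second position. The difference between orientations in a pair correlated only weakly with that of the same cCRE alone, with r of 0.35 (first) and 0.41 (second).

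Some cCREs kept their preferred orientation in both positions and others in one. The cCREs named in this paragraph other than E017 and E060 were singled out after their values were seen. E125, 2.16 lower forward than in reverse alone (-2.16), had -2.00 ± 0.13 (SD, n = 3) first and -1.78 ± 0.09 second, with 115 of 124 and 109 of 117 couples called lower forward. E013, nearest to Tsn, had -2.37 ± 0.38 second, with all 45 couples called lower forward, but -0.03 ± 0.17 first, with 6 of 33 called lower and 3 higher. E249, nearest to Dbi, which encodes an acyl-CoA binding protein, had -2.17 ± 0.03 second, with 168 of 178 couples called lower forward, and -0.08 ± 0.10 first, with 58 of 215 called lower and 20 higher. Alone, forward minus reverse was -2.21 for E013 and -2.30 for E249, near the value in second position. E068 preferred the forward orientation, by 2.53 ± 0.18 second and 0.85 ± 0.09 first. The orientation of E017 and E060 mattered less, with -0.42 ± 0.05 and 0.66 ± 0.03 second, and the difference between positions was not tested for any of them.

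The largest orientation differences in single couples were of another size. E097+|E200+ had 0.0021, 0.0404 and 0.0233, while E097+|E200- had 11.3, 11.05 and 10.97. E072+|E095+ had 5.77, 5.02 and 5.93, while with E072 turned it had 0.00612, 0.0442 and 0.00465. E215+|E091-, E051+|E291+ and E297+|E055+ differed from the construct with a turned cCRE by -8.84 ± 0.26 (SE), 8.68 ± 0.38 and 8.48 ± 0.38 on the log2 scale. In each case one construct lay near or below the empty pair and the other above 3. The high constructs E097+|E200- and E215-|E091- are named again below as furthest above the sum. The other constructs of the same 2 cCREs had geometric means of at most 0.0373 and 0.0980. The part of differences between the plasmids of a construct in these values was not tested.

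All of the 100 most active pairs had E017 in second position, and the lowest of them had an activity of 30.8. The pairs named next are the 5 most active with at most 2 couples per leading cCRE. E206+|E017+ gave 70.2, 73.4 and 79.4, against 14.9, 15.0 and 16.9 for E017+ alone and 0.0222, 0.0521 and 0.0434 for E206+ alone, and lay 2.25 ± 0.03 (SE) above their sum. E054+|E017- gave 52.1, 49.5 and 55.5, which was 0.73 ± 0.03 above the sum and, against the product rather than the sum, fell to -0.53. E157-|E060+ gave 35.0, 24.9 and 24.6 and E160-|E060+ gave 23.7, 24.4 and 19.1. E242+|E062-, which held neither E017 nor E060, had 18.6, 24.9 and 24.9 from cCREs of 0.246 and 0.508 alone.

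The pairs furthest above the sum were made of cCREs that were inactive alone. E097+|E200- gave 11.3, 11.05 and 10.97, where E097+ had 0.0543, 0.0834 and 0.0675 and E200- had 0.0434, 0.0385 and 0.0367 alone, a log2 difference from the sum of 6.69 ± 0.08 (SE). E215-|E091- gave 13.7, 13.5 and 14.9 and lay 6.43 ± 0.07 above the sum. E016+|E217+ (6.28 ± 0.27), E144+|E162- (5.92 ± 0.19) and E208+|E167- (5.81 ± 0.08) followed. These values did not recur in other constructs of the same cCREs. The 7 other constructs of E144 and E162 had geometric means of 0.0140 to 0.0571, and the 4 others of E215 and E091 had 0.0305 to 0.0980. Among all 15895 pairs of 2 cCREs inactive alone, here with the 4 pairs that had a cCRE at 0 alone in a replicate, 296 (1.86%) were above 1 in all 3 replicates. Of the 237 of these with another construct of the same couple among these pairs, 24 (10.1%) had another one above 1. All replicates were transfected with the same plasmids, so their agreement does not bear on differences between the plasmids of a construct, whose part in these values was not tested.

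**Figure D5:**
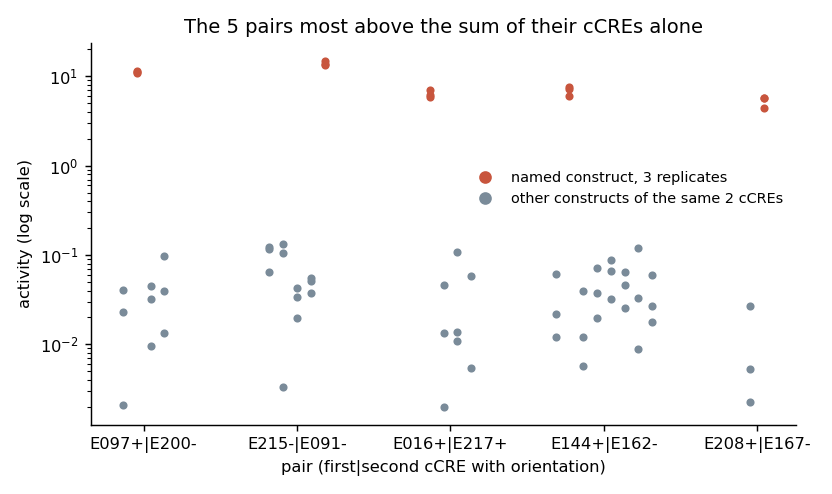
Activity (log scale) of the 5 pairs furthest above the sum of their cCREs alone and of all other listed constructs of the same 2 cCREs; each column of points is 1 construct and each point 1 replicate, with replicates at 0 not drawn. The named constructs lie above 4 and all others below 0.2.

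The pairs furthest below the sum are named with at most 2 couples per leading cCRE. E077+|E091- gave 0.00217, 0.00888 and 0.00748, a difference from the sum of -8.13 ± 1.18 (SE), and E086+|E077+ gave 0.00327, 0.0631 and 0.00281 (-7.48 ± 1.19). E138-|E108- gave 0.00237, 0.00338 and 0.00305 (-7.48 ± 1.49), while E108-|E138- had 0.799, 0.745 and 0.725. E004+|E046+ gave 0.00643, 0.0177 and 0.0140 (-7.06 ± 0.84) where E004+ alone had 1.75, 1.47 and 1.38, and E046-|E004+ gave 1.64, 1.15 and 1.53. E086-|E097- lay -6.98 ± 1.29 from the sum. At these levels a replicate can differ from another by over 10-fold, and the standard errors are correspondingly wide.

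An additive fit of log2 activity, with 1 value for each oriented cCRE in each position, took 78.6% of the sum of squares over the 40168 pairs. The first fragment alone took 27.7% and the second 47.2%. The mean square of what was left was 1.40, which was 5.57 times the error variance of a mean of 3 replicates (0.252), so pairs differed from the additive fit by more than the spread between replicates. What was left showed little relation to the distance between the cCREs in the genome, with medians of -0.07 to -0.03 in 5 ranges from 10000 to 3000000 bp. It was 0.18 for 299 pairs between 2000 and 10000 bp and -0.26 for 42 pairs of overlapping cCREs, less than 450 bp apart.

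Against the other constructs of the library, cCRE pairs were set beside the cCRE with promoter constructs by their difference from the sum. The median log2 difference from the sum was -1.02 ± 0.03 for cCRE pairs and -1.03 ± 0.02 for a cCRE followed by a promoter (SD, n = 3), a difference of 0.01 ± 0.01 (exact permutation test over 3 replicates, two-sided p = 0.5). With means over constructs in place of medians the difference was 0.13. Among cCRE pairs 16.5% were called above and 59.2% below the sum, and among cCREs followed by a promoter 9.95% and 66.5%. The median was -1.71 ± 0.09 for a promoter followed by a cCRE and -1.36 ± 0.01 for pairs of promoters. cCRE pairs exceeded these by 0.69 ± 0.08 and 0.34 ± 0.02 in all 3 replicates, with an exact two-sided p of 0.25, the smallest that 3 replicates allow; with means the difference from pairs of promoters was 0.53.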

How the data were processed

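The activities were used as the authors deposited them, a ratio of cDNA to plasmid barcodes per construct and replicate, with the activity of each fragment alone beside it. Reads were aligned with Bowtie2 to mm10 per the submitters' processing notes; barcode counting, filters, averaging and scaling are not given in the sources used here. The 3 biological replicates were grouped by sample title. Columns were matched to samples by replicate number and library. Depth is unknown, so no counting intervals are given.

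Constructs above 0 in all 3 replicates entered. limma 3.58.1 in R 4.3.3 fitted within-replicate log2 differences, with the replicate as the block and a variance trend on mean log2 activity. Benjamini-Hochberg adjustment at 0.05 ran over all 2-fragment constructs of the Tfcp2l1 library that could enter a test. For position it ran over 146 cCREs, and for effects on partners over 186 (first) and 199 (second). The fits were tested on simulated data. The replicate pairs constructs because both come from the same transfection.

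Members and lists were chosen with earlier results of these data known. Named cCREs and pairs were the 5 most extreme for each quantity, at most 2 couples per leading cCRE, past the threshold with the same direction in all replicates, plus cCREs named earlier. No genome sequence was used, so motifs were searched only in RefSeq promoter windows. p-values measure the spread between replicates of one plasmid pool.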

Additional observations from a re-analysis of the deposited data

How the results depend on the processing

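Of 699 recomputed values of 84 results, 644 kept their direction and their side of the threshold or stayed within 1.5 times the count, 23 became weaker, 8 stronger, 12 moved and 12 reversed. Dividing pairs and fragments alone by their empty constructs, chosen after seeing the data, had the broadest effect. Pairs above and below fragment 1 alone became 23896 and 1847, fragment 2 alone 25706 and 860, the sum 17100 and 4134, both fragments 19674 and 66. cCREs with higher and lower effects became 185 and 0 as fragment 1 and 179 and 8 as fragment 2. The median of pair means against the sum turned from -1.13 to 0.49, and the effects turned to 0.28 (E073), 0.25 (E293), 0.47 (E145), 0.24 (E080), 0.89 (E286), 1.10 (E099) and 1.15 (E101) as fragment 1 and to 1.04 (E286), 0.43 (E099) and 0.39 (E101) as fragment 2. With geometric means of at least 0.05, which removes weak constructs, lower counts fell to 4699 (fragment 1), 3201 (fragment 2), 11238 (sum), 490 (below both), 43 (effect as fragment 1) and 66 (as fragment 2). Against the product of the fragments 12131 pairs were lower, and E054+|E017- turned to -0.53. Without the variance trend 1800 couples were called for the orientation of fragment 1 and 2654 pairs lay below both fragments, and keeping constructs at 0 with a pseudocount of 0.01 gave 3165 below both; the cause was not tested. Without the replicate block, 40 rather than 83 cCREs were higher when first, and the other counts stayed within 1.5 times. Leaving out 1 replicate gave 3823 to 5072 pairs lower than fragment 2 alone, 645 to 1136 below both fragments and 77.0% to 77.7% for the additive fit. Without E017 and E060, also chosen after seeing the data, the order difference was 0.69. With means over constructs, cCRE pairs differed from cCRE with promoter constructs by 0.13 and from promoter pairs by 0.53. Calls at low activity are limited by the replicate spread there.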

Other observations

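E031 and E032 overlap at chr1:118459316-118459378 on the promoter side of 2900060B14Rik, and differed in activity. E031 gave 0.208, 0.313 and 0.201 forward and 0.0641, 0.0451 and 0.0464 in reverse alone, and its effects on partners were -0.46 as first and -1.29 as second fragment, where E032 had 1.52 and 3.10. The effects of E031 turned to 1.16 and 0.32 relative to the empty constructs, and those of E032 were 3.14 and 4.72. E271, which lies within Steap3, the gene of an iron reductase, and holds a stretch of a promoter window annotated to it, was active alone only forward (0.328, 0.296 and 0.454). It had effects of 0.06 as first and 1.76 as second fragment. E173, which holds the promoter stretches of Gm33490 and Gm33575, had -0.80 and -0.45. E271 had 1.68 and 3.38 on that scale, and the effects of E173 turned to 0.82 and 1.17.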
